A study of Mus musculus with 12 samples.

Results

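The interferon-inducible GTPases followed here are 10 genes picked by symbol from the deposited count table, which lists 24499 gene symbols: 6 guanylate-binding proteins (Gbp2, Gbp3, Gbp4, Gbp5, Gbp6 and Gbp7) and 4 immunity-related GTPases (Igtp, Irgm1, Irgm2 and Iigp1). All 10 were found. They were read in cells enriched on CD11c beads from lymph nodes that drained E0771-cOC tumours, E0771 being a mouse mammary carcinoma line, taken on day 9 after injection. There were 6 libraries from APOE-KO mice, which lack the lipid carrier apolipoprotein E, and 6 from wildtype C57BL6 mice. Both genotypes carried the tumour, and the node was digested with collagenase I/IV and DNAse I before the beads. The animals' age and sex, the design of the knockout allele and whether each library had its own animal were, as far as the sources used here go, not given. The p-values therefore measure the spread between these libraries, which may be technical. The bead target CD11c is the product of Itgax and sits on dendritic cells and on part of the macrophages.

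Guanylate-binding proteins and immunity-related GTPases are effector proteins of cell-autonomous defence in mice. Interferon gamma, and more weakly the type I interferons, switch on their genes through transcription factors, IRF1 among them, that act at gamma-activated sites (GAS) and interferon-stimulated response elements (ISRE). The proteins gather on the vacuoles of intracellular bacteria and parasites and help to break them open, which exposes microbial products to inflammasomes. Igtp, Irgm1 and Irgm2 form the regulatory branch of the immunity-related GTPases, which sits on the cell's own membranes and keeps effector members such as Iigp1 inactive there.

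The stretches of promoter that carry the interferon elements are shown first, because these elements are a feature of the members that the choice by symbol did not use. A window from 250 bases before to 50 after the RefSeq transcript start (GRCm38.p6) was used for 7 of the 10 members: Gbp2, Gbp3, Gbp5, Gbp7, Igtp, Irgm1 and Irgm2. Each window was searched on both strands for the ISRE core and for the GAS core TTCNNNGAA, which reads the same on either strand. The ISRE core searched is a pair of GAAA copies with any 2 bases between them, and shows as TTTC copies where it lies on the other strand. Each line below gives the 120 bases before the start (250 for Gbp5), in the direction of transcription, with every match in capitals; capitals of 2 matches can run together. The starts are RefSeq's and can differ from the ends of the GENCODE gene spans given later, since a span runs over all annotated transcripts. For Gbp5, Irgm1 and Irgm2 the stretch shown lies inside the span, and for Gbp2 and Gbp3 it lies partly inside.
Gbp2, chr3:142620543-142620662, plus strand: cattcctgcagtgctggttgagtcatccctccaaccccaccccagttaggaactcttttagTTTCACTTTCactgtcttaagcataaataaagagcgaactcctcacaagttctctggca
Gbp3, chr3:142559924-142560043, plus strand: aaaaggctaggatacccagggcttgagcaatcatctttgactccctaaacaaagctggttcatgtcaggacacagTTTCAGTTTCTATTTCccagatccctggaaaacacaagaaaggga
Gbp5, chr3:142496684-142496933, plus strand: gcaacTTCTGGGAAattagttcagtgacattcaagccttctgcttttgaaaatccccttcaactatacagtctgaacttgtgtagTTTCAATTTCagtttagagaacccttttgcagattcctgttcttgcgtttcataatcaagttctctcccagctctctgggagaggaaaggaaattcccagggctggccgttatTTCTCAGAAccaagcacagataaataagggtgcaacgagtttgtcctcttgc
Gbp7, chr3:142530216-142530335, plus strand: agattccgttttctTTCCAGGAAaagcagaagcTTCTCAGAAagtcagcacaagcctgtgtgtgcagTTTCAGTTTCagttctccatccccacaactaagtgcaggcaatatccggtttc
Igtp, chr11:58199436-58199555, plus strand: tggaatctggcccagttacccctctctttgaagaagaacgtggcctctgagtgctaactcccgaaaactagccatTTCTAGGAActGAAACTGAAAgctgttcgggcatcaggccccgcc
Irgm1, chr11:48871421-48871540, minus strand: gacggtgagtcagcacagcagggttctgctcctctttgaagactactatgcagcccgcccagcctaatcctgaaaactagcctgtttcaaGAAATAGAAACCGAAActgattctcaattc
Irgm2, chr11:58214857-58214976, plus strand: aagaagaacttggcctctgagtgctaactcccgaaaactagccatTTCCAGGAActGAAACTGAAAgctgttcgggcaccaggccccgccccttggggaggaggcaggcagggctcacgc

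All 7 members with a window held at least 1 match to the ISRE core, and 4 of them, Gbp5, Gbp7, Igtp and Irgm2, also held the GAS core. Gbp3 had a second window, for a second start, with no match to either. Of the 27025 genes with a window that was used, 3.99% held the ISRE core in a window, 9.55% held TTCNNNGAA and 0.614% held both. Of all 32851 windows of full length, which also cover genes left out of that count, the shares were 3.44%, 8.30% and 0.454%. The ISRE core was found for 10 of 19 genes of a list of type I interferon targets and 3 of 12 of a list of interferon gamma targets. TTCNNNGAA was found for 6 of those 19 and 2 of those 12. In Gbp3 and in Irgm1, 2 ISRE matches overlap each other. In Igtp and Irgm2, which neighbour each other, the GAS match ends 2 bases before the ISRE match, and 107 of 110 bases around the pair are identical between these genes. A match describes letters in a window and is not evidence that a factor binds there.

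**Figure D1:**
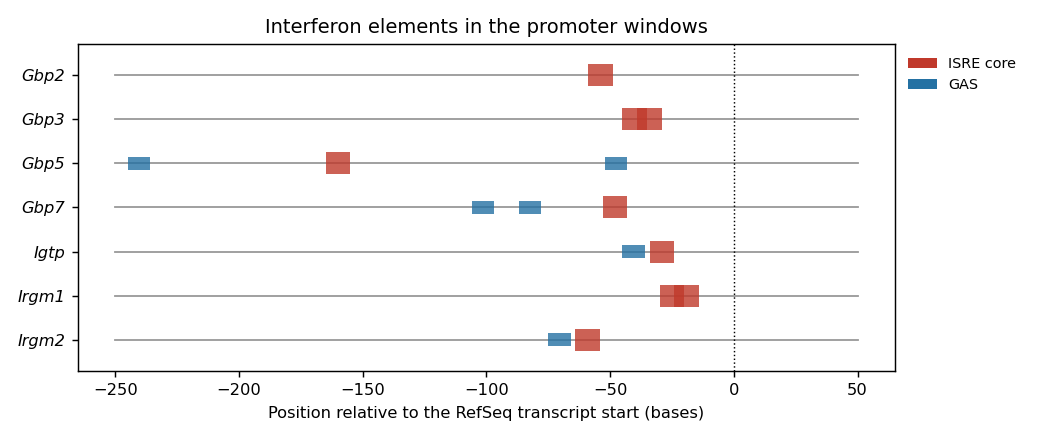
Map of the promoter windows of 7 members, with position relative to the RefSeq transcript start in bases on the x axis and a member per row. Red boxes are matches to the ISRE core and blue boxes matches to TTCNNNGAA (GAS). Every member shown has a red box, and Gbp5, Gbp7, Igtp and Irgm2 have blue boxes too.

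Libraries held 2381477 to 4898360 reads. Apoe, the targeted gene, checks the labels: it had 2.75 to 10.7 CPM (read counts scaled to a common library size, with edgeR's TMM factors) in APOE-KO and 409 to 531 CPM in wildtype. The 45S ribosomal RNA gene Rn45s took 11.3% to 21.6% of reads in APOE-KO and 2.71% to 32.2% in wildtype. On the first 3 principal components (500 genes with the highest variance), the libraries farthest out were APOE-KO 5, wildtype 1 and wildtype 3. The dendritic cell markers Zbtb46, Flt3, H2-Aa, Cst3 and Itgax summed to 11477 to 12974 CPM in APOE-KO and 10470 to 13175 CPM in wildtype. Most of this sum was H2-Aa (means of 6058 CPM in APOE-KO and 6350 CPM in wildtype) and Cst3 (5771 and 4926 CPM). Means in APOE-KO and wildtype were 298 and 278 CPM for Itgax, 135 and 126 CPM for Flt3, and 22.5 and 21.0 CPM for Zbtb46. Sums of different lists therefore do not measure how many cells of each type were present. Markers of other cells were present too. B cell markers summed to 357 to 504 CPM in APOE-KO and 447 to 514 CPM in wildtype, T cell markers to 71.2 to 111 CPM in APOE-KO and 69.8 to 85.7 CPM in wildtype, and NK cell markers to 34.3 to 161 CPM in APOE-KO and 68.4 to 253 CPM in wildtype. In such bulk samples, fewer cells of a type and less RNA per cell cannot be told apart.

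No interferon-inducible GTPase of the 10 passed the test between genotypes. In edgeR's quasi-likelihood test with Benjamini-Hochberg adjustment over 10714 genes, 0 of the 9 members that had enough reads to be tested reached an adjusted p of 0.05, where 1.49% of all tested genes did (160 genes, 1.08% higher and 0.411% lower). At an unadjusted p under 0.05 the count was 1 of 9, Gbp2, beside 12.1% of all tested genes (6.27% higher). DESeq2 and limma-voom also called 0 of 9, beside 2.77% and 1.56% of all tested genes, and edgeR called 0 members at a minimum count of 30 or with no filter, beside 1.75% of 8703 and 1.38% of 16926 genes. The median log2 fold change of the 9, APOE-KO over wildtype, was 0.23, with 7 positive and 2 negative, and that of all tested genes was -0.018, with 47.2% positive. For none of the 9 did all APOE-KO libraries lie beyond all wildtype libraries, which held for 1.77% of tested genes. Gbp6 had too few reads to be tested.

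The members were present at very different levels. Reads come from the 3' end of each transcript, so a count does not grow with transcript length and CPM can be set side by side between genes, within the limits of read sharing given below. Ordered by their mean level over 12 libraries, Gbp4 (79.4 CPM) was followed by Gbp2 (62.6), Gbp7 (50.2), Igtp (30.96), Gbp3 (30.3), Irgm2 (29.1), Iigp1 (23.96), Gbp5 (17.6), Irgm1 (3.78) and Gbp6 (1.48). The ranges of Gbp5 and Irgm1 did not overlap in either genotype, and Gbp7 exceeded Igtp in 12 of 12 libraries. From Igtp through Gbp3, Irgm2 and Iigp1 to Gbp5, the ranges of neighbours overlapped in both genotypes, as did those of Irgm1 and Gbp6, so these neighbours could not be ordered. Gbp4 and Gbp2 overlapped in APOE-KO and did not in wildtype, while Gbp2 and Gbp7 overlapped in wildtype and did not in APOE-KO. The mean of Gbp2 was above that of Gbp7 in APOE-KO (74.8 and 46.9 CPM) and below it in wildtype (50.4 and 53.5 CPM). Of the reads of the 10 members, Gbp2 made up 21.4% ± 2.67 in APOE-KO and 16.2% ± 3.82 in wildtype, and Gbp4 23.3% ± 2.34 in APOE-KO and 25.2% ± 2.21 in wildtype (SD, n = 6 each).

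**Figure D2:**
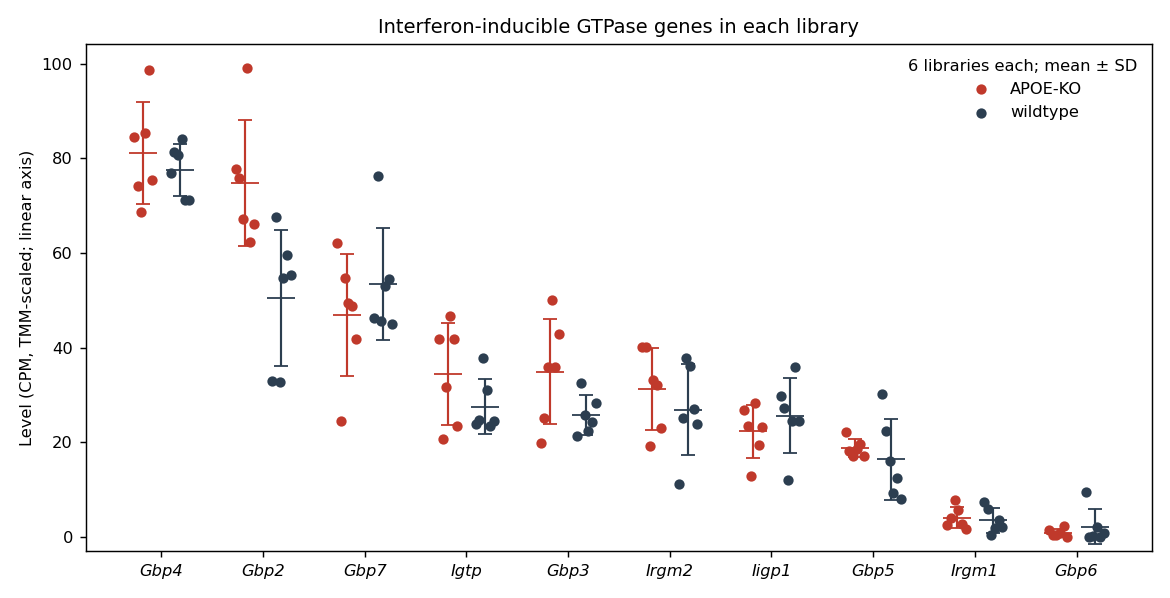
Level of each member (CPM, linear y axis) in every library, APOE-KO in red to the left and wildtype in dark blue to the right, with mean and SD over 6 libraries each. Members run from the highest mean level, Gbp4 at 79.4 CPM, to the lowest, Gbp6 at 1.48 CPM, and the genotypes overlap for every member.

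Gbp2 lies on chromosome 3 from 142620602 to 142638008 on the plus strand (protein-coding, GENCODE vM21, GRCm38), at the end of a cluster that also holds Gbp5, Gbp7, Gbp3 and Gbp2b. Its protein is anchored in membranes by a lipid tail and restricts intracellular parasites in mice. It had a lowest, median and highest level of 62.4, 71.5 and 99.2 CPM in APOE-KO, against 32.7, 54.9 and 67.5 CPM in wildtype. All 6 APOE-KO libraries lay above the wildtype median and 3 lay above every wildtype library, but the groups overlapped. The mean was 74.8 ± 13.3 CPM in APOE-KO and 50.4 ± 14.4 CPM in wildtype (SD, n = 6 each), a log2 fold change of 0.57 ± 0.19 (SE; 95% interval 0.18 to 0.95). The unadjusted p was 0.00552 and the adjusted p in edgeR's quasi-likelihood test 0.161. A two-sided exact permutation test over all assignments of 6 of 12 libraries gave p = 0.00866. Over 26 alternative settings the log2 fold change of Gbp2 ran from 0.31 to 0.66 and the adjusted p from 0.0919 to 0.701, with the lower value and the higher p where plasmacytoid markers were a covariate.

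Gbp3, a cytosolic guanylate-binding protein gene on chromosome 3 (142560026 to 142573209, plus strand), had the next largest difference. Its lowest, median and highest levels were 19.9, 35.9 and 49.98 CPM in APOE-KO, against 21.2, 24.96 and 32.6 CPM in wildtype. In 4 APOE-KO libraries it exceeded every wildtype library, and in 1 it lay below all of them. The mean was 34.9 ± 11.1 CPM in APOE-KO and 25.7 ± 4.20 CPM in wildtype (SD, n = 6 each), a log2 fold change of 0.44 ± 0.22 (SE; adjusted p 0.427 in edgeR's test). The spread between APOE-KO libraries was thus wider than that between wildtype libraries.

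Gbp5 and Gbp7 are neighbours in the same cluster, at 142493978 to 142522344 and 142530342 to 142550149. Gbp5, whose protein promotes inflammasome assembly in macrophages, had 17.1, 18.3 and 22.2 CPM as lowest, median and highest in APOE-KO, against 7.94, 14.2 and 30.3 CPM in wildtype. The APOE-KO libraries lay close together inside the much wider wildtype range (coefficient of variation 10.2% in APOE-KO and 52.1% in wildtype), and the log2 fold change was 0.23 ± 0.29 (SE). The value for Gbp5 ran from 0.09 to 0.47 with 1 library left out (0.47 without wildtype library 1). It was 0.99 with plasmacytoid and 0.62 with macrophage and monocyte markers as a covariate, and 0.53 without the 3 libraries that lay farthest out, with an adjusted p of 0.243 or more in every setting. Gbp7, which has been linked to defence against bacteria in mouse macrophages, had 24.4, 49.1 and 62.1 CPM in APOE-KO, against 45.1, 49.6 and 76.4 CPM in wildtype. APOE-KO library 2 held the lowest Gbp7 level, 4 of 6 APOE-KO libraries lay below the wildtype median, and the log2 fold change was -0.19 ± 0.20 (SE). The adjusted p in edgeR's test was 0.829 for Gbp5 and 0.783 for Gbp7.

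Gbp4 and Gbp6 belong to a second cluster on chromosome 5, on the minus strand (105115767 to 105139586 and 105270702 to 105293698). Gbp4, the most abundant member, had 68.7, 79.96 and 98.7 CPM as lowest, median and highest in APOE-KO, against 71.2, 78.9 and 84.2 CPM in wildtype. The medians were close and the groups overlapped. Its log2 fold change of 0.06 ± 0.14 (SE; adjusted p in edgeR's test 0.912) had a 95% interval of -0.22 to 0.35, the narrowest of the 9 tested members. Gbp6 had 20 reads over the APOE-KO libraries and 31 over the wildtype libraries, of which 18 were in wildtype library 1. Its lowest, median and highest levels were 0.0, 0.581 and 2.24 CPM in APOE-KO, against 0.0, 0.513 and 9.56 CPM in wildtype. With no filter on low counts, edgeR gave Gbp6 a log2 fold change of -1.17 ± 1.16 (SE; adjusted p 0.697). Reads of Gbp6 are hard to assign, since 77.8% of the 50-base words in the last 500 bases of its annotated transcripts also occur in transcripts of other genes, Gbp10 among them. That share was 19.4% for Gbp4, 3.96% for Irgm1, 3.25% for Gbp3, 1.62% for Gbp5 and 0.0% for Gbp2, Gbp7, Igtp, Irgm2 and Iigp1. Gbp4 also shares 61 and 60 exonic bases with Gbp8 and Gbp9, which are annotated over it on the same strand.

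The regulatory immunity-related GTPases did not pass either. Igtp (chromosome 11, 58199556 to 58207591, plus strand) had 20.8, 36.7 and 46.8 CPM as lowest, median and highest in APOE-KO, against 23.4, 24.6 and 37.8 CPM in wildtype. In 3 APOE-KO libraries Igtp exceeded every wildtype library, and the log2 fold change was 0.31 ± 0.22 (SE; adjusted p in edgeR's test 0.622). Irgm2, whose annotated span begins inside Igtp on the same strand (58199618 to 58222782) and shares 162 exonic bases with it, had 19.2, 32.6 and 40.2 CPM in APOE-KO, against 11.2, 26.1 and 37.8 CPM in wildtype. Its groups overlapped broadly, with a log2 fold change of 0.20 ± 0.25 (SE; adjusted p 0.823 in edgeR's test). With plasmacytoid or with macrophage and monocyte markers as a covariate, the value for Irgm2 was -0.21 and -0.23, also uncalled. Irgm1 (chromosome 11, 48861968 to 48871683, minus strand), needed in mice for resistance to many intracellular microbes, was sparse, with 8 to 22 reads per APOE-KO library and 2 to 17 per wildtype library. Its lowest, median and highest levels were 1.70, 3.35 and 7.83 CPM in APOE-KO, against 0.350, 2.80 and 7.44 CPM in wildtype, with broadly overlapping groups. At that depth the 95% interval of its log2 fold change, 0.27, reached from -1.01 to 1.54, so changes of up to 2-fold in either direction were not excluded at this depth. Without APOE-KO library 3 the log2 fold change of Irgm1 was -0.03.

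Iigp1, an effector GTPase that coats parasite vacuoles, was the other member with a negative value. Its lowest, median and highest levels were 12.8, 23.4 and 28.2 CPM in APOE-KO, against 11.9, 25.9 and 35.9 CPM in wildtype. Of the APOE-KO libraries 2 lay above the wildtype median, and the log2 fold change was -0.18 ± 0.25 (SE; adjusted p in edgeR's test 0.843). With macrophage and monocyte markers as a covariate the value for Iigp1 was 0.07. In the fit with no covariate and all 12 libraries, the 95% intervals of the 9 tested members other than Irgm1 left out a 2-fold change in either direction (a log2 fold change of 1 or -1), with bounds of -0.70 for Iigp1 and 0.95 for Gbp2 at the extremes. In other settings the bounds were not worked out for every member. With 1 library left out, the log2 fold change reached 0.66 for Gbp2 and 0.56 for Gbp3. For Gbp5 a 2-fold change was not left out in several other settings. Its value was 0.99 ± 0.34 (SE) with plasmacytoid and 0.62 ± 0.34 (SE) with macrophage and monocyte markers as a covariate. It was 0.53 ± 0.29 (SE) without the 3 libraries that lay farthest out and 0.47 ± 0.27 (SE) without wildtype library 1.

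**Figure D3:**
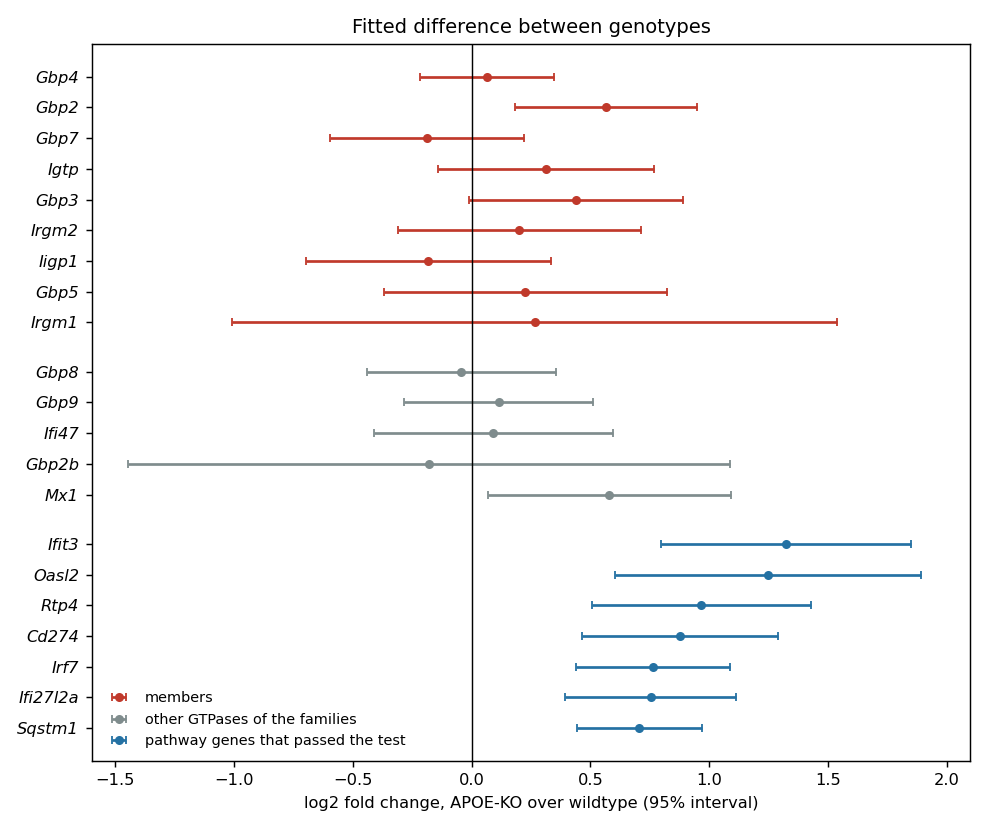
Log2 fold change of APOE-KO over wildtype (x axis) with its 95% interval for the 9 tested members (red), 5 of the 6 tested other GTPases of the families (grey, Mx2 not shown) and the 7 genes of the pathway lists that passed the test (blue). Among the members only the interval of Gbp2, 0.18 to 0.95, lies wholly on 1 side of 0.

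Pairwise correlations between the members across libraries were mostly weak. With the mean of each genotype removed from log2 CPM, Pearson's r over 12 libraries between pairs of the 9 tested members ran from -0.62 (Irgm1 and Irgm2) to 0.66 (Gbp4 and Igtp), with a median of 0.09 over 36 pairs, 13 of them negative. Spearman's rho for Gbp4 and Igtp was 0.59, and r without the 2 libraries farthest from the Gbp4 median was 0.79. For Irgm1 and Irgm2, rho was -0.57 and r without the 2 farthest libraries -0.28, on the few reads of Irgm1. The overlapping pair Igtp and Irgm2 had an r of 0.36. All members of a library share its scaling factor, and these values are a description with no test. Counting error, larger for sparse members such as Irgm1, was not removed, and no other gene pairs were set beside them.

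**Figure D4:**
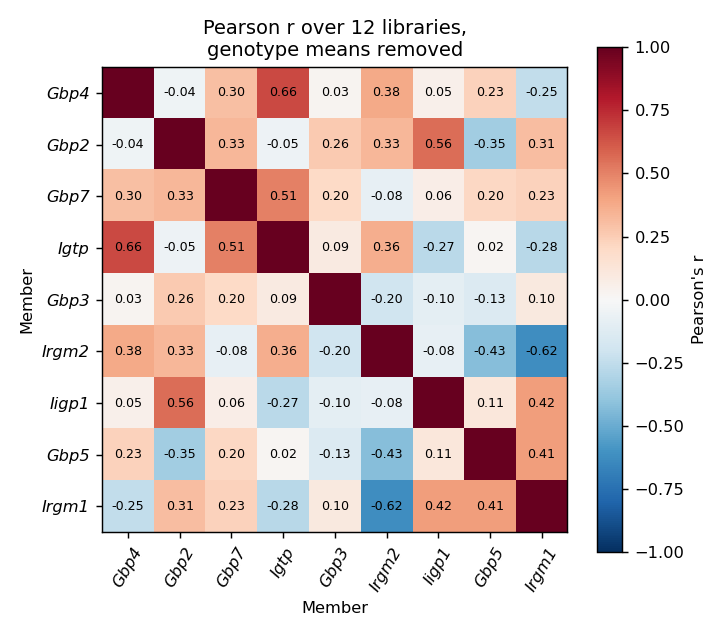
Pearson's r between log2 CPM of each pair of the 9 tested members over 12 libraries, after removal of the genotype means. Red is positive and blue negative, on a scale from -1 to 1. The highest value is 0.66 for Gbp4 and Igtp and the lowest -0.62 for Irgm1 and Irgm2.

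Outside the family, the 5 genes that followed the members' mean most closely across libraries were, in falling order, Mettl14, Sema6d, Il18bp, Csnk1g1 and Gnai3. In that order they encode an RNA methyltransferase subunit, a semaphorin, a secreted binder of interleukin 18, a casein kinase and an inhibitory G protein subunit. Likeness was measured as Pearson's r over 12 libraries, genotype means removed, with the average of the 9 standardised members, among 6301 tested genes of at least 20 CPM. The values of r were 0.89 for Mettl14, 0.84 for Sema6d, 0.83 for Il18bp and 0.82 for Csnk1g1 and Gnai3. Spearman's rho was 0.89 for Mettl14 and for Sema6d and 0.80 to 0.83 for the others. Without the 2 libraries farthest from the median of the members' average, r was 0.63 to 0.76. As the highest of 6301 values over 12 libraries, these carry no test. For the members themselves, r of a member with the mean of the other members ran from -0.09 (Irgm2) to 0.53 (Gbp7). These values were not picked as the highest of many, so they cannot be set against those of the 5 genes.

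Among other GTPases of these and related families, not all of them known here to answer interferon, 12 relatives were listed. Of these 6 were tested and 0 passed, with 1, Mx1, at an unadjusted p under 0.05, beside 12.1% of all tested genes. Gbp8 had 71.8 ± 18.2 CPM in APOE-KO and 74.2 ± 19.1 CPM in wildtype, and Gbp9 had 39.6 ± 4.25 CPM in APOE-KO and 36.9 ± 10.9 CPM in wildtype (SD, n = 6 each). Ifi47, an immunity-related GTPase also called Irgd, had 41.2 ± 10.8 CPM in APOE-KO and 38.2 ± 15.7 CPM in wildtype (SD, n = 6 each). Mx1, a dynamin-like GTPase gene that answers type I interferon, had 35.2 ± 5.70 CPM in APOE-KO and 23.9 ± 10.4 CPM in wildtype (SD, n = 6 each), a log2 fold change of 0.58 (adjusted p 0.335 in edgeR's test). Gbp2b was sparse, with 108 reads over the APOE-KO libraries and 111 over the wildtype libraries. Mx2, the remaining tested relative, had 6.00 ± 3.30 CPM in APOE-KO and 5.84 ± 2.54 CPM in wildtype (SD, n = 6 each). Its log2 fold change was 0.04 (adjusted p 0.990 in edgeR's test).

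The relative that stood apart was Irgc1, a family member on chromosome 7 (24431922 to 24452297, minus strand), 4.73 Mb from Apoe, named here after its values were seen. It had 3 to 17 reads in every APOE-KO library and at most 1 in any wildtype library, 63 reads in all in APOE-KO against 2 in wildtype. The ratio of summed reads, scaled for library size, was 30.7, with a 95% exact Poisson interval of 8.14 to 259 that covers counting error only. The groups did not overlap, and the two-sided exact permutation test gave p = 0.00216, the smallest that this design allows. Irgc1 was too low for the filter on counts and so was not among the 10714 genes. With no filter its adjusted p in edgeR's test was 0.0471, and 0.00751 without the 3 libraries that lay farthest out. Whether its position near the targeted gene has a part in this was not tested.

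None of the receptor genes upstream of the GTPases passed the test. Ifngr1 and Ifngr2, the receptor chains for interferon gamma, averaged 333 ± 28.2 and 42.8 ± 6.50 CPM in APOE-KO, against 358 ± 52.5 and 38.6 ± 7.02 CPM in wildtype (SD, n = 6 each). Of the 10 genes of interferon gamma receptor and signalling 0 passed, and 2 had an unadjusted p under 0.05, both lower, beside 5.81% of all tested genes. Irf1, a transcription factor induced by interferon gamma, had 504 ± 39.2 CPM in APOE-KO and 522 ± 120 CPM in wildtype (adjusted p 0.932 in edgeR's test; SD, n = 6 each). Ifng itself gave 111 reads in APOE-KO and 150 in wildtype, with 2 to 38 per APOE-KO library and 0 to 71 per wildtype library. The interferon gene Ifnb1 had 0 reads in every library, where 3 reads would stand for 0.525 to 1.59 CPM. Of 12 interferon and interferon-inducing cytokine genes 3 were tested and 0 passed. At an unadjusted p under 0.05, 2 of the 3 were higher, beside 6.27% of all tested genes. The 2 were Il12b and Il18, cytokine genes whose products induce interferon gamma. Il12b had 354 ± 44.1 CPM in APOE-KO and 257 ± 54.4 CPM in wildtype, and Il18 had 80.1 ± 11.4 CPM in APOE-KO and 56.9 ± 7.24 CPM in wildtype (SD, n = 6 each; adjusted p 0.107 for both in edgeR's test). In 6 of 6 APOE-KO libraries Il18 exceeded every wildtype library, as did 1.23% of all tested genes.

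The type I interferon receptor chains did not pass either. Ifnar1 averaged 130 ± 23.6 CPM in APOE-KO and 143 ± 27.8 CPM in wildtype, and Ifnar2 153 ± 14.8 CPM in APOE-KO and 156 ± 19.2 CPM in wildtype (SD, n = 6 each). In that list 1 of 8 genes rose, Irf7, the master regulator of type I interferon responses, at 85.8 ± 15.3 CPM in APOE-KO against 50.6 ± 6.91 CPM in wildtype (SD, n = 6 each; adjusted p 0.00989 in edgeR's test). All higher calls over the tested genes came to 1.08%.

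Few targets of interferon gamma passed the test. In the list of interferon gamma targets 1 of 18 tested genes rose and 0 fell, with a median log2 fold change of 0.24, beside 0.23 for the GTPases. At an unadjusted p under 0.05, 6 of the 18 were higher and 1 was lower, beside 6.27% and 5.81% of all tested genes, and 15 of the 18 values were positive. Psmb8, a subunit of the immunoproteasome, was the gene of this list whose groups did not overlap, at 593 ± 20.6 CPM in APOE-KO and 507 ± 22.1 CPM in wildtype (SD, n = 6 each; adjusted p 0.358 in edgeR's test). Groups did not overlap for 1.77% of all tested genes. The gene that rose was Cd274, which encodes the checkpoint ligand PD-L1, at 67.7 ± 18.2 CPM in APOE-KO and 37.3 ± 9.45 CPM in wildtype (SD, n = 6 each; adjusted p 0.0213 in edgeR's test). The chemokine Cxcl9, a target of interferon gamma, had 239 ± 31.1 CPM in APOE-KO and 225 ± 38.7 CPM in wildtype (SD, n = 6 each; adjusted p 0.872 in edgeR's test). Cxcl10, which answers both interferon types, had 75.1 ± 19.0 CPM in APOE-KO and 48.1 ± 14.9 CPM in wildtype (SD, n = 6 each; adjusted p 0.157 in edgeR's test). In the list of type I interferon targets 5 of 28 rose and 0 fell, with a median of 0.71. At an unadjusted p under 0.05, 18 of the 28 were higher, where 6.27% of all tested genes were. Mx1, Mx2, Irf7 and Usp18 of this list stand in lists above too, and Bst2 is also a plasmacytoid marker used below. Socs1 and Irf1 stand both among the interferon gamma targets and in the list of interferon gamma receptor and signalling.

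The type I targets that rose were Ifit3 (log2 fold change 1.32), Oasl2 (1.25), Rtp4 (0.97), Irf7 (0.76) and Ifi27l2a (0.75), which are antiviral effectors or regulators. Ifit3 averaged 27.2 ± 8.42 CPM in APOE-KO and 10.9 ± 2.19 CPM in wildtype (SD, n = 6 each; adjusted p 0.00522 in edgeR's test). Ifit1 and Ifit2, antiviral RNA-binding proteins, had log2 fold changes of 1.09 and 0.90 with adjusted p of 0.164 and 0.331 in edgeR's test. Whether the GTPases differ from the type I targets was not tested, since genes of a list are not independent of each other. Of the 7 pathway genes that passed, Sqstm1 passed in 26 of 26 alternative settings, Ifit3 in 25, Irf7 in 23, Ifi27l2a in 20, Cd274 in 19, Rtp4 in 18 and Oasl2 in 12. Leaving out any of wildtype 2, 3, 4, 5 or APOE-KO 3, 5, 6 ended the call of Oasl2, with the highest adjusted p at 0.156. Those that ended the call were wildtype 5, wildtype 6, APOE-KO 4 and APOE-KO 6 for Cd274 (highest adjusted p 0.0788), wildtype 5, APOE-KO 3 and APOE-KO 6 for Rtp4 (0.0882), and wildtype 4, APOE-KO 1, APOE-KO 3 and APOE-KO 6 for Ifi27l2a (0.0796). Among the other settings, the plasmacytoid covariate ended the calls of Oasl2 (adjusted p 0.209), Rtp4 (0.395, at a log2 fold change of 0.63), Irf7 (0.160), Ifi27l2a (0.118) and Cd274 (0.107). The macrophage and monocyte covariate ended those of Rtp4 (0.426, at a log2 fold change of 0.58), Oasl2 (0.157), Cd274 (0.0984) and Irf7 (0.0812), and the T and NK cell covariate those of Ifi27l2a (0.101), Oasl2 (0.100), Ifit3 (0.0929) and Cd274 (0.0895). Scaling by library totals alone ended the calls of Rtp4, Oasl2 and Irf7, the replicate block those of Rtp4 (0.068) and Oasl2 (0.0565), limma-voom that of Oasl2, and leaving out the 3 libraries farthest out those of Oasl2 and Rtp4. Ifit1 passed without APOE-KO library 2 (adjusted p 0.0298).

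**Figure D5:**
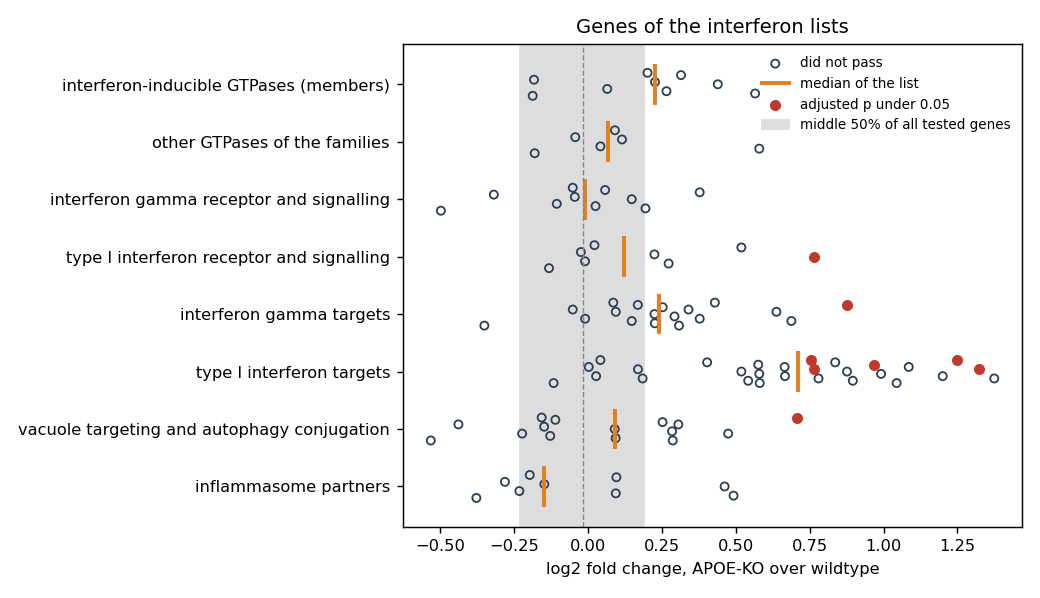
Log2 fold change of APOE-KO over wildtype (x axis) for every tested gene of 8 lists (rows). Filled red points passed an adjusted p of 0.05, open points did not, orange bars are list medians and the grey band holds the middle 50% of all tested genes. The medians are 0.23 for the GTPases and 0.71 for the type I interferon targets, whose list holds 5 of the red points.

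The proteins that work with the GTPases at vacuoles showed a single call. In the list of vacuole targeting and autophagy conjugation genes 1 of 15 rose and 0 fell. It was Sqstm1, the cargo adaptor p62, at 292 ± 44.2 CPM in APOE-KO and 179.5 ± 14.7 CPM in wildtype (SD, n = 6 each; log2 fold change 0.71 ± 0.13 SE, adjusted p 0.00254 in edgeR's test), and in 6 of 6 APOE-KO libraries it exceeded every wildtype library, as did 1.23% of all tested genes. The groups did not overlap for 3 of the 15, the others being Gabarap, at 322 ± 14.1 CPM in APOE-KO and 264 ± 21.9 CPM in wildtype, and Traf6, at 47.2 ± 8.34 CPM in APOE-KO and 33.96 ± 5.76 CPM in wildtype (SD, n = 6 each; adjusted p 0.258 for Gabarap and 0.230 for Traf6 in edgeR's test). Gabarap is a ubiquitin-like protein that autophagy attaches to membranes, and Traf6 is a ubiquitin ligase. At an unadjusted p under 0.05, 3 of the 15 were higher and 1 was lower, beside 6.27% and 5.81% of all tested genes. Atg3 and Atg5, of the conjugation machinery that guides the GTPases, had 67.3 ± 6.46 and 55.95 ± 16.6 CPM in APOE-KO, against 73.5 ± 10.7 and 62.6 ± 11.2 CPM in wildtype (SD, n = 6 each). Of the inflammasome partners 0 of 9 passed. At an unadjusted p under 0.05, 2 of the 9 were higher, beside 6.27% of all tested genes. One of them is Il18, already counted among the cytokine genes above. Casp1 and Casp4, the inflammatory caspases, had 26.4 ± 9.84 and 23.8 ± 13.0 CPM in APOE-KO, against 29.2 ± 9.27 and 22.4 ± 9.95 CPM in wildtype (SD, n = 6 each).

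Markers of several cell types moved with genotype beside these values. Of 5 plasmacytoid dendritic cell markers Siglech fell, and their summed level was 1008 to 1315 CPM in APOE-KO and 1213 to 2710 CPM in wildtype. Of 4 tested markers of mature migratory dendritic cells Ccr7, Ccl22 and Cacnb3 rose, with sums of 2189 to 3048 CPM in APOE-KO and 1562 to 2180 CPM in wildtype. Among macrophage markers C1qb rose, 1 of 5 tested, with sums of 663 to 838 CPM in APOE-KO and 520 to 864 CPM in wildtype. Sirpa rose and Clec10a fell among 5 markers of type 2 conventional dendritic cells (sums of 480 to 615 CPM in APOE-KO and 427 to 583 CPM in wildtype). No marker passed in the lists for conventional dendritic cells (5 tested), type 1 conventional dendritic cells (5), monocytes (5), B cells (5), T cells (3), NK cells (5), stromal, endothelial and epithelial cells (5) or neutrophils (3). All log2 fold changes were negative for type 1 conventional dendritic cells, NK cells, the stromal list and plasmacytoid cells (4 of these 5 at an unadjusted p under 0.05). All were positive for T cells, neutrophils and mature migratory dendritic cells. The sums were 788 to 990 CPM in APOE-KO and 869 to 1195 CPM in wildtype for type 1 conventional dendritic cells, and 656 to 869 CPM in APOE-KO and 737 to 995 CPM in wildtype for monocytes. They were 61.2 to 98.9 CPM in APOE-KO and 76.5 to 134 CPM in wildtype for stromal, endothelial and epithelial cells, and 9.41 to 55.96 CPM in APOE-KO and 12.1 to 25.1 CPM in wildtype for neutrophils. With the mean of T and NK cell, of plasmacytoid, or of macrophage and monocyte markers as a covariate, 0 of 9 members passed. The part of cell composition in the members' levels was not tested further.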

How the data were processed

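The authors deposited whole-number read counts per gene symbol, not normalised, for 12 libraries. Per the labels' protocols, the kit was Lexogen's 3' FWD. The submitters' processing notes name build mm10, DESeq2 1.4, R 4.1.0, featureCounts 1.5.1 and STAR 2.7.8a. Not given in the sources used here were the annotation, the strand setting, the handling of reads with several matches and any molecular identifiers, so reads of similar or overlapping genes are uncertain. Each column name equals the description label of a sample.

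The analysis used edgeR 4.0.16 (R 4.3.3). Its filterByExpr (minimum count 10, total 15) kept 10714 genes, TMM scaled the libraries, and glmQLFit and glmQLFTest compared APOE-KO with wildtype over all 12 libraries, with Benjamini-Hochberg adjustment and a threshold of 0.05. Fold changes are APOE-KO over wildtype, with an SE of the absolute log2 fold change divided by the root of F. Log2 CPM used a prior count of 2. The test was checked on simulated counts (3 simulations). It recovered 17.4% of 1.5-fold, 59.7% of 2-fold and 82.8% of 3-fold changes, with a false-call rate of 5.62%. Most simulated 1.5-fold changes thus went uncalled, so the lack of a call for a member is not evidence of no change. Alternatives used other size factors and filters, DESeq2 1.42.0, limma-voom (limma 3.58.1), robust dispersion, a replicate block, marker covariates and fewer libraries. Intervals and floors cover counting error only where they rest on reads. No 2 libraries of the same genotype agreed within sampling noise.

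Members and lists were chosen with earlier results of these data known. By rule the text names the members, the first 2 genes and all passing genes of each pathway list, and the 5 genes most like the members. Irf1, Gbp9, Ifi47, Mx1, Mx2, Irgc1, Psmb8, Il12b, Il18, Gabarap, Traf6 and the marker genes were named after their values were seen. Positions are from GENCODE vM21 (GRCm38, the assembly that mm10 also names), which matched all 10 members. Promoter sequences are RefSeq's for GRCm38.p6, with windows of 7 members used.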

Additional observations from a re-analysis of the deposited data

Results flagged for a closer look

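Single libraries lay far from the other 5 of their genotype for 5 of 76 group values examined, where chance flags about 1 in 20 groups. Gbp6 had 9.56 CPM in wildtype library 1 and at most 2.05 CPM in the other wildtype libraries. Gbp7 had 76.4 CPM in wildtype library 2 and at most 54.5 CPM in the other wildtype libraries, and the same library held 41.7 CPM of Casp4, against at most 24.1 CPM in the others. Ifit1 had 3.96 CPM in APOE-KO library 2 and at least 16.02 CPM in the other APOE-KO libraries. Ifnar2 had 183 CPM in APOE-KO library 5 and at most 154 CPM in the other APOE-KO libraries.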

How the results depend on the processing

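The count of members that passed was 0 under all 26 alternatives. The count of all genes that passed (160, with 116 higher and 44 lower in APOE-KO) was 88 with library totals alone (53 higher, so 60.2% of calls in place of 72.5%), 297 with DESeq2 (194 higher, 103 lower), 84, 47 and 72 with T and NK cell, plasmacytoid, or macrophage and monocyte markers as a covariate (64, 33 and 46 higher, 20, 14 and 26 lower), and 233 with no filter (165 higher, 68 lower). Without single libraries it ran from 99 (APOE-KO library 3) to 230 (wildtype library 3), with 72 to 166 higher and 27 to 64 lower. The labels do not say that replicate numbers pair the libraries, and same-numbered libraries had correlations of deviations of -0.077 to 0.018. A replicate block left 100 genes, 70 higher, and 0 members. Its log2 fold change for Gbp2 was 0.60. The causes of these changes were not tested. Signs of uncalled log2 fold changes turned as follows: with plasmacytoid markers as a covariate Irgm2 -0.21, Ifi47 -0.61, Ifngr2 -0.0066, Ifnar1 0.073, Ifnar2 0.12, and with macrophage and monocyte markers as a covariate Irgm2 -0.23, Iigp1 0.066, Gbp2b 0.0047, Ifi47 -0.41, Ifnar1 0.056, Ifnar2 0.012, Casp4 -0.072, and with T and NK cell markers as a covariate Gbp8 0.061, Gbp9 -0.011, Irf1 0.018, Ifng 0.49, Cxcl9 -0.13, Casp4 -0.15, and under library totals alone Ifi47 -0.00018, and without the 3 libraries that lie farthest out Irf1 0.011, Cxcl9 -0.00048, Casp4 -0.37. Without single libraries the value ran from -0.29 to 0.0016 for Casp1, -0.20 to 0.37 for Casp4, -0.45 to 0.086 for Gbp2b, -0.12 to 0.088 for Gbp8, -0.059 to 0.30 for Ifi47, -0.080 to 0.032 for Ifnar2, -0.77 to 0.22 for Ifng, -0.13 to 0.070 for Irf1, -0.029 to 0.60 for Irgm1. For sparse genes (Irgm1, Gbp6, Ifng) depth limits what can be seen.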
